A study of Mus musculus with 6 samples.

Results

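The trophectoderm regulators and keratins described here are 9 genes, Cdx2, Eomes, Elf5, Tead4, Gata2, Gata3, Tfap2c, Krt8 and Krt18, that are used to recognise the outer layer of the mouse blastocyst. They were found by symbol, through the RefSeq accession that the array files give for each probe, and were represented by 11 probes out of 41174, or 9 of the 18512 gene symbols on the array. Krt8 and Gata2 had 2 probes each and the other genes 1. Of the 9 genes, 8 were well above background on all 6 arrays and were tested. Elf5 was not well above background on any array.

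The trophectoderm is the first epithelium of the embryo and gives rise to the trophoblast of the placenta, whereas embryonic stem (ES) cells are derived from the inner cell mass. In outer cells the Hippo kinases are held inactive, so that YAP enters the nucleus and acts with the DNA-binding protein TEAD4 to switch on Cdx2 and Gata3. Cdx2, Eomes, Elf5 and Tfap2c then take part in the regulatory circuit of trophoblast stem cells, and Krt8 and Krt18 form the keratin filaments of the epithelium. In ES cells the Pou5f1 product and chromatin regulators restrain this programme.

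The study asked what a Flag-tagged Dppa2 transgene does in ES cells that lack Dppa2, also called ECAT15-2, a SAP-domain protein of pluripotent cells. Total RNA of mouse ES cell lines, derived from blastocysts and grown with serum and LIF on gelatin, was labelled with Cy3 and hybridised to 1-colour Agilent arrays, 2 per group. The wild-type lines (15-1+/+, 15-2+/+) were not transduced. The mock knockout lines (15-1CT/CT, 15-2-/-) had no functional Dppa2 gene and carried the vector piggyBac-CAG-IP, which makes no Dppa2. The Flag-Dppa2 knockout arrays came from knockout lines of the same genotype carrying piggyBac-CAG-Flag15-2-IP, in which the ubiquitous CAG promoter drives the transgene. Both knockout groups therefore also had the targeted CT allele of Dppa4 (ECAT15-1) on both chromosomes, which the wild-type lines lacked. All lines came from a mixed background of 129Sv, C57BL6 and a further strain that the labels leave unknown. Each replicate number stands for the blastocysts of 1 mother. For each number, 1 knockout line was hybridised once with either vector (line 1 and line 2 below), and the wild-type array of that number shares only the mother with it. Each knockout group thus holds 1 array from each of 2 lines.

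Per array, the signal had its 75th percentile at 719 to 856 intensity units, 55.9% to 60.4% of the probes were well above background, and no spot was saturated. The number of arrays limits the precision. Levels are log2 signals relative to the 75th percentile of the array, so that 0 is the signal of a probe at that percentile, and they are compared for 1 probe across arrays and not between probes. The summed levels of marker lists below add different probes, and are to be compared only across arrays within a list. The 2 wild-type arrays were nearly identical, with a median SD within the group of 0.04 (log2) against 0.15 in mock and 0.17 in Flag-Dppa2. No error is given for wild-type levels for that reason. If these arrays were counted as 1 sample, no feature passed in any comparison, and the unadjusted limma p was under 0.05 for 2280, 1470 and 1564 features. Y-linked transcripts were above background on both wild-type arrays (3 to 4 of 5) and on none of the 4 knockout arrays, so that the sex of the lines and the genotype cannot be told apart. The Flag-Dppa2 arrays were on a slide of their own, so that the slide and the transgene cannot be told apart, while wild type and mock shared the other slide. Dppa2 stood at 2.13 and 2.07 in wild type, at -2.09 and -2.0 in mock and at -0.05 and 0.35 in Flag-Dppa2. It was lower in mock than in wild type (log2 difference -4.15, SE 0.16, limma adjusted p = 0.00565) and higher in Flag-Dppa2 than in mock (2.20, SE 0.16, adjusted p = 0.0268), and stayed lower than in wild type (-1.95, adjusted p = 0.0409). The last 2 differences did not pass once the replicate number was a block (adjusted p = 0.0666 and 0.0924).

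Among the trophectoderm genes, Tead4 was the only one that passed the test in any comparison: it was 2.1-fold higher in mock than in wild type. Gata2 was 3.91-fold higher with Flag-Dppa2 than in mock, with both lines in that direction, without passing the threshold. For Cdx2, Krt8 and Krt18 the 2 knockout lines differed by more under Flag-Dppa2 than any 2 group means did, and the Flag-Dppa2 array of line 1 was the highest of the 6 arrays for each of these genes. Tfap2c shared the first of these traits, with line 2 the higher, and Gata3 shared the second. Calls rest on 1 limma fit over all 18767 features, two-sided, with a limit of 0.05 on the Benjamini-Hochberg adjusted p, and differences are given with the SE of the fit. In these bulk RNA samples, a change in the number of cells that express a gene and a change in RNA per cell cannot be told apart.

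**Figure D1:**
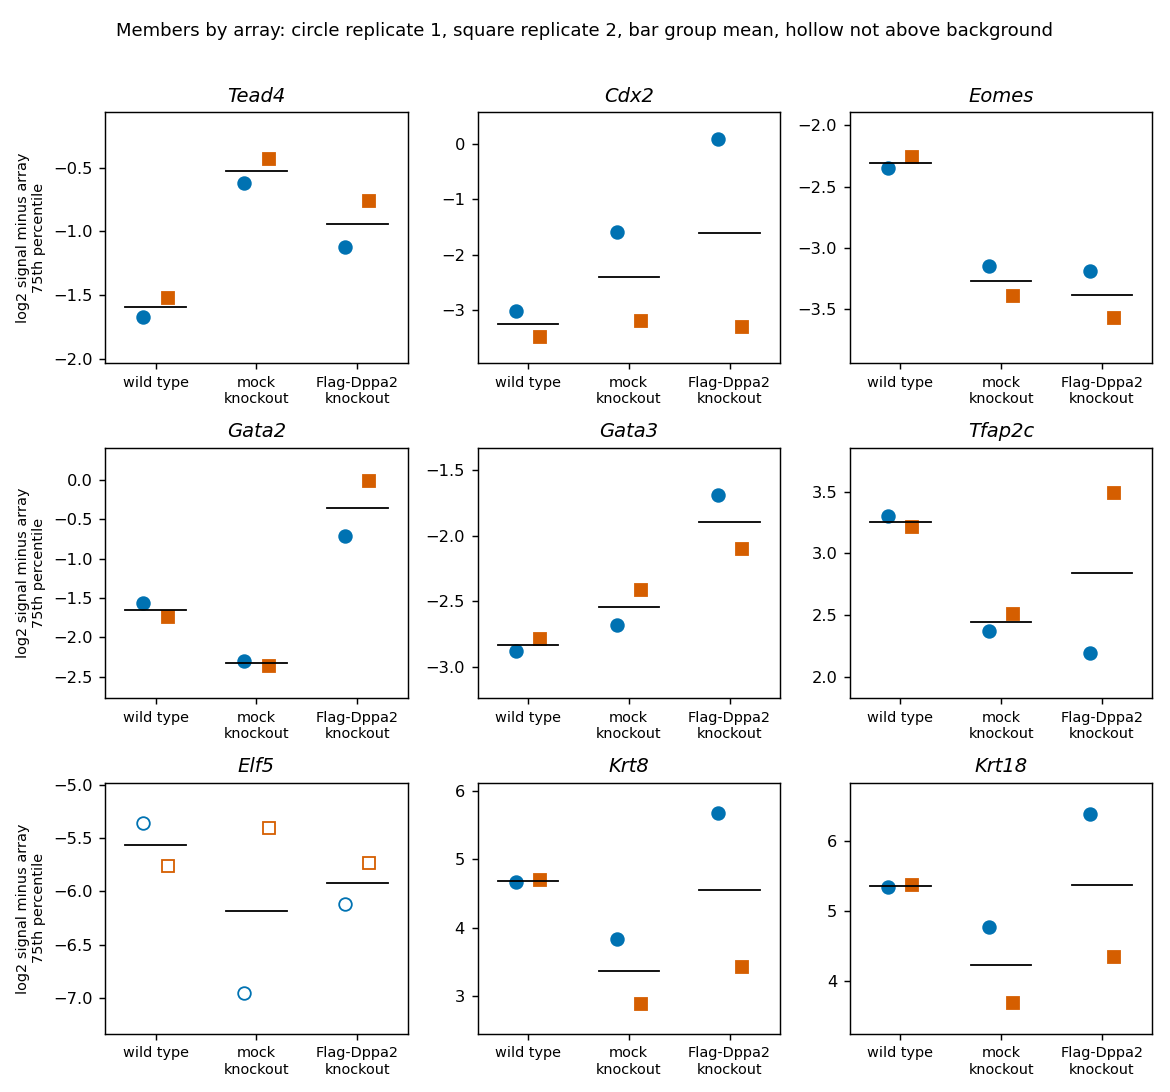
Level of each of the 9 genes on each array, as log2 signal minus the 75th percentile of the array (vertical axis), in the 3 groups (horizontal axis), with circles for replicate 1, squares for replicate 2, bars for group means and hollow symbols for signals not well above background. Mock and wild type do not overlap for 7 of the 8 tested genes, Tead4 among them, against 65.8% of all features. Flag-Dppa2 and mock do not overlap for Gata2, Gata3 and Tead4, against 37.1% of all features. For Cdx2, Krt8, Krt18 and, by less, Gata3 the replicate 1 array of Flag-Dppa2 stands above the other 5 arrays. Each panel has its own axis.

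Tead4 encodes the TEAD factor that the mouse embryo needs to form trophectoderm. Its level was -1.67 and -1.52 on the wild-type arrays, -0.62 and -0.43 on the mock arrays and -1.12 and -0.76 on the Flag-Dppa2 arrays. The 3 groups did not overlap, and Flag-Dppa2 lay between the others. The mock arrays were higher than wild type by 1.07 (log2, SE 0.17, 95% interval 0.62 to 1.52, limma adjusted p = 0.0436). The Flag-Dppa2 arrays stood 0.42 below mock (log2 difference -0.42, SE 0.17, adjusted p = 0.403) and 0.66 above wild type (SE 0.17, adjusted p = 0.138), neither of which passed. The lines ran alike, with Flag-Dppa2 minus mock at -0.50 in line 1 and -0.33 in line 2. The Tead4 call in mock was lost without the filter on dim probes (adjusted p = 0.103). With the wild-type arrays averaged the difference was 1.07, and with 1 wild-type or mock array left out it was 0.98 to 1.17. The call was lost in these fits too. Each leaves 1 array in a group, so that the loss cannot tell a weak Tead4 difference from too few arrays. If the 2 wild-type arrays are 1 sample, however, the averaged fit is the one that applies, and Tead4 is then not called. The call passed with the replicate block (adjusted p = 0.0467) and within the slide that wild type and mock shared (0.0474).

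Over the 6 arrays, the features whose pattern was most like that of Tead4 were Plvap (Pearson r 0.997), Fbxl8 (0.996) and Wdr86 (0.994), out of 3773 features well above background on all arrays whose values spanned at least 1 (log2). Plvap, which encodes a vesicle protein of endothelial cells, stood at -1.05 and -0.99 in wild type, 0.35 and 0.63 in mock and -0.43 and 0.13 in Flag-Dppa2. These correlations rest on 6 arrays in 3 groups and were picked as the highest, so that they describe a likeness of pattern and nothing more.

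Cdx2 encodes the caudal-type homeobox factor that specifies trophectoderm and that is sufficient to turn ES cells into trophoblast stem cells when overexpressed. Its signal was 101 and 76.7 intensity units on the wild-type arrays, 267 and 81.0 on the mock arrays and 840 and 73.1 on the Flag-Dppa2 arrays. On the log2 scale these were -3.02 and -3.48 in wild type, -1.59 and -3.20 in mock and 0.09 and -3.30 in Flag-Dppa2. Line 1 was thus higher than wild type with either vector, whereas line 2 lay within the wild-type range with either vector. Line 1 exceeded line 2 by 3.05-fold in mock and by 10.5-fold in Flag-Dppa2. In all, 5.49% of the tested features were as far apart between the lines in mock, and 0.517% in Flag-Dppa2. The median absolute difference between the lines over all features was 0.24 in mock and 0.27 in Flag-Dppa2 (log2). With 1 array per line and vector, these line differences have no replicate and no test.

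The group differences of Cdx2 were far from the threshold: 0.86 for mock minus wild type (log2, SE 1.28, limma adjusted p = 0.705), 0.79 for Flag-Dppa2 minus mock (adjusted p = 0.875) and 1.65 for Flag-Dppa2 minus wild type (adjusted p = 0.51). Their 95% intervals reached from -2.62 to 5.06, and so covered both rises and falls of several fold. Within the lines, Flag-Dppa2 minus mock was 1.68 in line 1, a 3.21-fold difference beyond the scanner's error of 0.21, and -0.10 in line 2, within an error of 0.23. Without the Flag-Dppa2 array of line 1 the difference from mock turned to -0.90, and without the mock array of line 2 to -0.01. Mock minus wild type was 0.05 without the mock array of line 1 and 1.66 without that of line 2.

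Eomes encodes a T-box factor needed for trophoblast proliferation and, later, for mesoderm and definitive endoderm. It stood at -2.35 and -2.26 in wild type, -3.15 and -3.40 in mock and -3.19 and -3.58 in Flag-Dppa2. Both knockout groups lay below wild type on every array, and they overlapped each other. Mock was 1.96-fold below wild type without passing the threshold (log2 difference -0.97, SE 0.18, limma adjusted p = 0.057), and Flag-Dppa2 minus wild type was -1.08 (adjusted p = 0.0844). The mock difference passed with normexp background correction, where it shrank to -0.60 (adjusted p = 0.0412), and with only features well above background on all 6 arrays (0.0492); over the other alternatives the adjusted p ranged from 0.0559 to 0.357. Flag-Dppa2 minus mock was -0.11 (SE 0.18, adjusted p = 0.877), with -0.04 in line 1 and -0.18 in line 2.

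Elf5 encodes the ETS factor that marks committed trophoblast stem cells and whose promoter is known to be methylated and silent in ES cells. Its signal was 19.9 and 15.9 intensity units in wild type, 6.48 and 17.6 in mock and 11.4 and 13.6 in Flag-Dppa2. None of these was well above background, so that no fold is given and Elf5 was not tested. Its scanner error of 0.34 to 1.44 (log2) per array is also larger than the 0.14 to 0.20 of the other 8 genes.

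Gata2 and Gata3 encode zinc-finger factors that activate trophoblast genes. Gata2 stood at -1.57 and -1.74 in wild type, -2.30 and -2.36 in mock and -0.71 and -0.01 in Flag-Dppa2. All 3 groups were apart, with mock the lowest and Flag-Dppa2 the highest. The second probe of the gene had the same order, with -2.21 and -2.39, then -3.10 and -2.81, then -1.26 and -0.41. Flag-Dppa2 exceeded mock by 1.97 (log2, SE 0.26, 95% interval 1.28 to 2.66, limma adjusted p = 0.0798), which did not pass here or under any of the alternatives (0.0652 to 0.3). By line the difference was 3.0-fold in line 1 and 5.1-fold in line 2. The second probe gave 2.12 (SE 0.32, adjusted p = 0.106). Mock minus wild type was -0.67 (SE 0.26, adjusted p = 0.191) and Flag-Dppa2 minus wild type was 1.29 (SE 0.26, adjusted p = 0.102). With only wild type and mock in the fit, the SE of mock minus wild type was 0.11 (limma adjusted p = 0.0682).

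Gata3 stood at -2.88 and -2.79 in wild type, -2.68 and -2.41 in mock and -1.69 and -2.10 in Flag-Dppa2. The groups did not overlap and Flag-Dppa2 was the highest, as for Gata2, while mock lay above wild type and not below it. The Gata3 differences were smaller, at 0.65 for Flag-Dppa2 minus mock (log2, SE 0.19, limma adjusted p = 0.28), 0.29 for mock minus wild type (adjusted p = 0.387) and 0.94 for Flag-Dppa2 minus wild type (adjusted p = 0.102). Flag-Dppa2 minus mock was 0.99 in line 1 and 0.31 in line 2. Line 1 thus had the larger difference, whereas for Gata2 it was line 2.

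Tfap2c encodes the transcription factor AP-2 gamma, which in the embryo acts in trophoblast and is also present in ES cells and germ cells. Its level was 3.30 and 3.21 in wild type, 2.37 and 2.51 in mock and 2.19 and 3.49 in Flag-Dppa2. Both mock arrays and the Flag-Dppa2 array of line 1 lay below wild type, and the Flag-Dppa2 array of line 2 lay above it. Mock minus wild type was -0.82 (log2, SE 0.45, limma adjusted p = 0.321), Flag-Dppa2 minus mock 0.40 (SE 0.45, adjusted p = 0.8) and Flag-Dppa2 minus wild type -0.42 (adjusted p = 0.636). The SE is shared by the 3 groups, and the SD was 0.92 in Flag-Dppa2 against 0.10 in mock. With only wild type and mock in the fit, the SE of mock minus wild type was 0.10 (limma adjusted p = 0.0531). Within the lines, Flag-Dppa2 minus mock was -0.18 in line 1, within the scanner's error of 0.20, and 0.98 in line 2, a 1.97-fold difference beyond it. The 2 lines thus differed by -0.14 in mock and by -1.30 in Flag-Dppa2 (line 1 minus line 2), and 7.09% of features were as far apart in Flag-Dppa2.

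**Figure D2:**
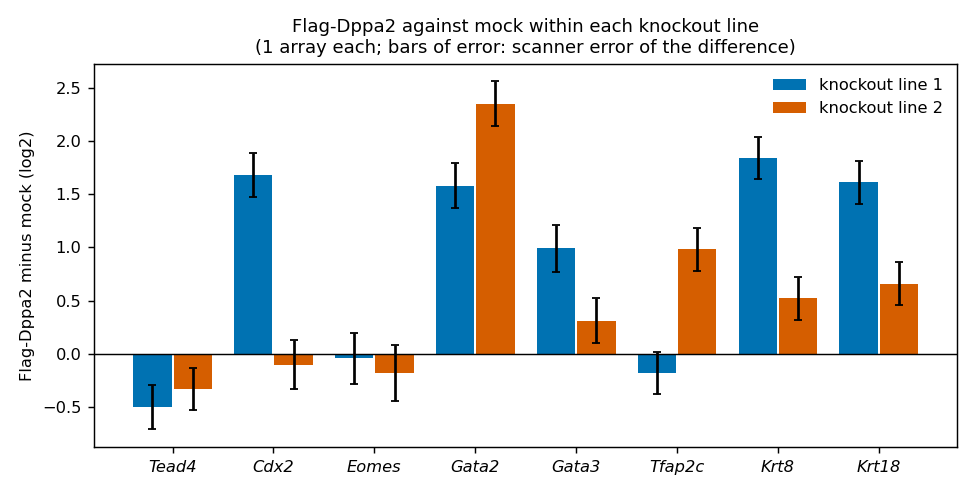
Flag-Dppa2 minus mock (log2, vertical axis) within knockout line 1 and line 2 for the 8 genes tested (horizontal axis); each bar is the difference of 2 arrays and its error bar is the scanner's error of that difference, not a spread between cultures. Gata2 is positive in both lines (1.58 and 2.35), Cdx2 is positive in line 1 (1.68) and -0.10 in line 2, and Tfap2c is -0.18 in line 1 and 0.98 in line 2.

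Krt8 and Krt18 encode the type II and type I keratins that pair into the filaments of simple epithelia and of the trophectoderm. The genes are near neighbours on mouse chromosome 15, transcribed away from each other, with 2 annotated long non-coding RNA genes, Gm36026 and Gm41404, between them. Because the keratins followed each other across the arrays and Cdx2 shared their difference between the lines, the RefSeq promoter windows of these 3 genes are shown, each the 250 bases before the annotated start, written 5' to 3' on the strand of the gene. They lie in assembly GRCm38.p6 at chr15:102004343-102004592 on the minus strand for Krt8, at chr15:102027966-102028215 on the plus strand for Krt18 and at chr5:147307250-147307499 on the minus strand for Cdx2. Capitals mark the matches to the searched motifs, 1 in each window and none overlapping another.
Krt8: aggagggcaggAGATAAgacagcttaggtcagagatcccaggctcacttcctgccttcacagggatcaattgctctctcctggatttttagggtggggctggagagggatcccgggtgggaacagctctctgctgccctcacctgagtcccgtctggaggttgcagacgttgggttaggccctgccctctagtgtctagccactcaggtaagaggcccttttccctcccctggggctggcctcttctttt
Krt18: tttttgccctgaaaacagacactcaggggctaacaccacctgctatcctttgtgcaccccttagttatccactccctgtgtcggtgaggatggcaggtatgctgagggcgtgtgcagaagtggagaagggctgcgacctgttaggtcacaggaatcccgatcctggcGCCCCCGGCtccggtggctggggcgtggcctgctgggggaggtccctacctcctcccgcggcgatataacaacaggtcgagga
Cdx2: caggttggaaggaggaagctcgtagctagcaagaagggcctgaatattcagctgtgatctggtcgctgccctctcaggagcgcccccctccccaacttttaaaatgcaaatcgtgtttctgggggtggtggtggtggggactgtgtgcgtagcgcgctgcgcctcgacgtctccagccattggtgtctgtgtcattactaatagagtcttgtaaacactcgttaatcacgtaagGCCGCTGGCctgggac

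The 5 motifs, searched on both strands, were GGAATG for TEAD factors, AGATAA for GATA factors, GCCNNNGGC for AP-2 factors, TTTATNG for CDX factors and AGGTGTGA for T-box factors. The Krt8 window held 1 GATA motif, 239 bases before the start, the Krt18 window 1 AP-2 motif at 83 bases and the Cdx2 window 1 AP-2 motif at 16 bases. Of 32851 mouse promoter windows of this length, 9.99% held the GATA motif, 13.7% the AP-2 motif, 12.6% the TEAD motif, 9.81% the CDX motif and 1.12% the T-box motif. The Krt8 window held 3 CpG dinucleotides, the Krt18 window 12 and the Cdx2 window 13, against a median of 6 over all windows. Windows were listed for 7 of the 9 genes. Among the others, the 2 Gata2 windows held 22 and 24 CpG dinucleotides, the Gata3 window 19, the Eomes window 8 and the 2 Elf5 windows 2 and 8. Among these windows, the Gata3 window held 3 AP-2 matches, the second Gata2 window 1 TEAD and 1 AP-2 match and the first Elf5 window 1 TEAD match, and the Eomes, first Gata2 and second Elf5 windows held none of the 5 motifs. A match describes letters in these windows and no binding was measured.

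Krt8 stood at 4.66 and 4.69 in wild type, 3.83 and 2.89 in mock and 5.67 and 3.42 in Flag-Dppa2. Its second probe gave 4.39 and 4.53, then 3.69 and 2.73, then 5.49 and 3.25. Krt18 stood at 5.34 and 5.38 in wild type, 4.78 and 3.69 in mock and 6.39 and 4.35 in Flag-Dppa2. For both keratins the mock arrays lay below wild type, the Flag-Dppa2 array of line 1 lay above wild type and that of line 2 lay below it, between the mock arrays. Taken as deviations from the gene's own mean over the 6 arrays, Krt8 was at 0.47, 0.49, -0.36, -1.30, 1.48 and -0.78 and Krt18 at 0.35, 0.39, -0.21, -1.30, 1.40 and -0.64, in the same order of arrays. The keratins thus ranked the 6 arrays in the same order.

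No keratin difference between groups passed the test. For Krt8, mock minus wild type was -1.31 (log2, SE 0.83, limma adjusted p = 0.378), Flag-Dppa2 minus wild type -0.13 (adjusted p = 0.942) and Flag-Dppa2 minus mock 1.18 (adjusted p = 0.641). The Krt18 differences were -1.12 (SE 0.78, adjusted p = 0.42), 0.01 (adjusted p = 0.996) and 1.14 (adjusted p = 0.634) in the same order. Both lines had higher keratin signals with Flag-Dppa2 than with the mock vector, by 3.58-fold in line 1 and 1.44-fold in line 2 for Krt8 and by 3.05-fold and 1.58-fold for Krt18. The lines themselves differed in the same direction, with Krt8 4.77-fold and Krt18 4.1-fold higher in line 1 than in line 2 under Flag-Dppa2, and 1.92-fold and 2.13-fold under mock. In Flag-Dppa2, 2.12% of features were as far apart as Krt8 and 2.74% as far as Krt18, against 12.6% and 10.1% in mock. Without the Flag-Dppa2 array of line 1, the difference from mock shrank to 0.05 for Krt8 and 0.12 for Krt18, and without the mock array of line 2 to 0.71 and 0.59; without the Flag-Dppa2 array of line 2 it was 2.31 and 2.15. Mock minus wild type was -1.78 for Krt8 and -1.67 for Krt18 without the mock array of line 1, and -0.84 and -0.58 without that of line 2.

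**Figure D3:**
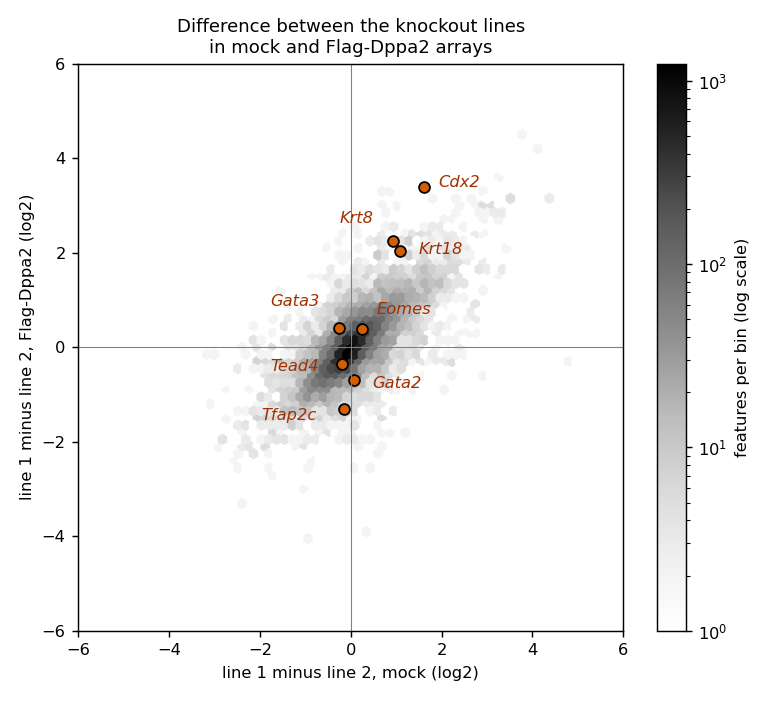
Line 1 minus line 2 (log2) in the mock arrays (horizontal axis) and in the Flag-Dppa2 arrays (vertical axis), with all 18767 tested features as grey bins on a logarithmic colour scale and the 8 genes as orange points; each axis is a difference of 2 single arrays. Cdx2 (1.61 and 3.39), Krt8 (0.94 and 2.25) and Krt18 (1.09 and 2.04) lie at the upper right, apart from the other 5 genes, of which Tfap2c is the lowest in the vertical direction (-1.30).

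Counted over the 8 tested genes, mock against wild type had 1 called higher, Tead4, and 0 called lower, with an unadjusted limma p under 0.05 for 2, against 27.3% of all features. Over all features 6.12% were called in that comparison, 1149 of 18767, and 494 with the replicate number as a block. With only wild type and mock in the fit, the unadjusted limma p was under 0.05 for 5 of the 8 genes, against 5557 of 18767 features. Both arrays of one group lay above both of the other for 7 of the 8 genes, 2 with mock higher and 5 with mock lower, against 65.8% of all features, so that this count is to be read against a high background. The median difference of the 8 genes was -0.75, against 0.05 over all features. In Flag-Dppa2 against mock 0 of 8 were called, with an unadjusted limma p under 0.05 for 2 against 13.4% of all features, where 0.741% of all features were called (139, or 4 with the block). Groups did not overlap for 3 of the 8 genes, Gata2, Gata3 and Tead4, against 37.1% of all features, and the median was 0.72 against -0.01. In Flag-Dppa2 against wild type 0 of 8 were called, with an unadjusted limma p under 0.05 for 4 against 21.6% of all features, where 0.533% of all features were called (100, or 0 with the block). There 4 of 8 did not overlap against 60.3% of all features, and the median was 0.33 against 0.03. The 3 comparisons share their arrays and are not independent of one another.

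**Figure D4:**
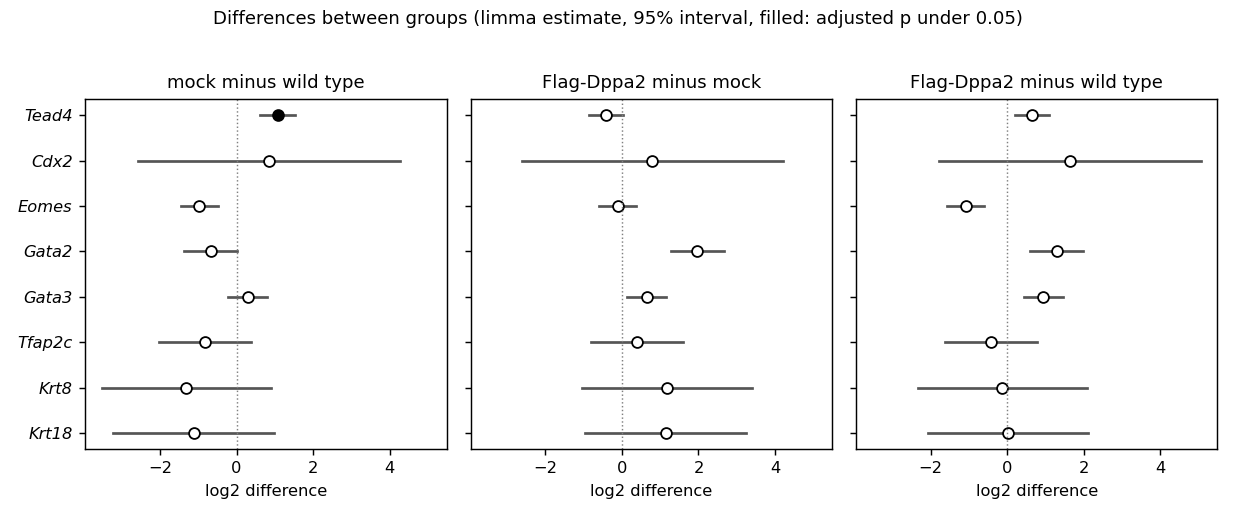
Differences between the groups for the 8 tested genes (vertical axis) with their 95% intervals from the limma fit (horizontal axis, log2), in 3 panels for mock minus wild type, Flag-Dppa2 minus mock and Flag-Dppa2 minus wild type; a filled symbol has an adjusted p under 0.05. Tead4 in mock minus wild type (1.07) is the only filled symbol, and the intervals of Cdx2, Krt8, Krt18 and Tfap2c cross 0 in all panels.

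The wider circuit was read from 5 gene lists. Of the Hippo pathway, whose kinases and adaptors control YAP and TEAD proteins, 18 of 22 listed genes were tested and 0 passed in any comparison. Its median difference was -0.30 in mock minus wild type, 0.12 in Flag-Dppa2 minus mock and -0.06 in Flag-Dppa2 minus wild type. Tead1 and Tead2, the other TEAD genes tested, differed between mock and wild type by -0.11 and -0.35 (log2, limma adjusted p = 0.815 and 0.344), against 1.07 for Tead4. Yap1, the coactivator of the TEAD proteins, stood at -0.87 and -0.98 in wild type, -0.92 and -0.43 in mock and 0.83 and 1.04 in Flag-Dppa2. Its difference between Flag-Dppa2 and mock, 3.05-fold, did not pass (adjusted p = 0.0739). These 3 genes were chosen after their values were seen.

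Of 26 other trophoblast genes 20 were tested, and 1 passed, in 1 comparison. Bmp4, which encodes a signalling ligand of the early embryo and of the trophoblast next to it, was 4.23-fold higher in mock than in wild type (log2 difference 2.08, SE 0.31, limma adjusted p = 0.0413), with -0.12 and -0.11 in wild type, 1.62 and 2.32 in mock and 1.22 and 1.77 in Flag-Dppa2. Flag-Dppa2 minus mock was -0.47 for Bmp4 (adjusted p = 0.622). The Bmp4 call was lost with no filter on dim probes (adjusted p = 0.0822) and within the shared slide (0.0582), and passed with the replicate block (0.0467). It was also lost without either wild-type or either mock array, at differences of 1.73 to 2.44, but those fits leave 1 array in a compared group. Without either Flag-Dppa2 array, which leaves wild type and mock whole, the Bmp4 call was lost as well, at an unchanged difference of 2.08. The medians of the list were 0.02, 0.24 and 0.14 in the 3 comparisons, in the order mock minus wild type, Flag-Dppa2 minus mock and Flag-Dppa2 minus wild type. Rhox6 and Rhox9, X-linked homeobox genes chosen after their values were seen, separated the lines in the direction opposite to Cdx2. Rhox6 stood at 2.58 and 2.66 in wild type, at -3.22 in line 1 and 1.19 in line 2 with the mock vector, and at -0.04 and 2.49 with Flag-Dppa2. Rhox9 was at 3.17 and 3.08, at -3.21 and 1.21, and at 0.29 and 2.96, and neither gene passed in any comparison.

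Of 17 close paralogues of the trophectoderm factors 13 were tested, with medians of -0.17, 0.17 and 0.35, and 1 passed. Cdx1, the caudal-type paralogue of Cdx2, was called higher in mock than in wild type (log2 difference 1.76, SE 0.20, limma adjusted p = 0.0267). Its probe was not well above background in wild type, so that the size of the change is uncertain. Measured from the dimmest signal that passed background on each wild-type array, the change was 2.82-fold. That figure is no minimum, because the dimmest passing signal came from another probe and normexp gave a smaller difference. Cdx1 stood at -3.44 and -3.27 in mock and at -3.77 and -4.26 in Flag-Dppa2, with no excess in line 1 of the kind that Cdx2 had. The Cdx1 call was lost with the replicate block (adjusted p = 0.0526) and with no filter (0.0575), and with normexp its difference shrank to 0.71 (adjusted p = 0.0301). The call was also lost without either wild-type or either mock array, at differences of 1.66 to 1.86, but those fits leave 1 array in a group. Gata6, a primitive endoderm factor chosen after its values were seen, was at -3.83 and -3.30 in wild type, -2.14 and -5.33 in mock and -0.62 and -1.64 in Flag-Dppa2 (adjusted p = 0.441 for Flag-Dppa2 against mock).

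All 19 further genes of simple epithelium were tested, with medians of -0.06, 0.13 and 0.05, and 1 passed. Krt23, a type I keratin, was lower in mock than in wild type (log2 difference -2.24, SE 0.31, limma adjusted p = 0.0351). Its probe was well above background on neither mock array, so that the size of the fall is uncertain. Measured to the dimmest signal that passed background on each mock array, the fall was 3.27-fold, which is likewise no minimum. The Krt23 call was lost with no filter (adjusted p = 0.07) and within the shared slide (0.0531), and passed with the block (0.0485). With normexp the difference shrank to -0.66 (adjusted p = 0.0211). The call was also lost without either wild-type or either mock array, at differences of -1.91 to -2.58, but those fits leave 1 array in a compared group. Without either Flag-Dppa2 array, which leaves wild type and mock whole, the Krt23 call was lost as well, at an unchanged difference of -2.24. Krt19, a type I keratin chosen here after its values were seen, stood at 2.58 and 2.60 in wild type, -4.45 and -1.65 in mock and 1.39 and 0.19 in Flag-Dppa2. Its differences did not pass (adjusted p = 0.055 for mock against wild type and 0.246 for Flag-Dppa2 against mock). In mock, line 1 was thus the lower line for Krt19 and the higher line for Krt8 and Krt18, and in Flag-Dppa2 it was the higher line for all 3 keratins. Epcam and Cdh1, surface and junction proteins of ES cells and epithelia chosen likewise, differed between mock and wild type by 0.05 and 0.16 (adjusted p = 0.834 and 0.763).

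The 10 tested of 12 genes that restrain trophoblast genes in ES cells had medians of 0.32, -0.06 and 0.18, and 0 passed in any comparison. Pou5f1, whose loss turns ES cells towards trophoblast and which was also chosen after its values were seen, stood at 3.01 and 2.67 in wild type, 3.57 and 3.68 in mock and 5.37 and 4.84 in Flag-Dppa2. Its highest array was thus Flag-Dppa2 of line 1, which was also the highest for Cdx2. The difference between Flag-Dppa2 and mock was 1.48 (log2, SE 0.23, limma adjusted p = 0.105).

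**Figure D5:**
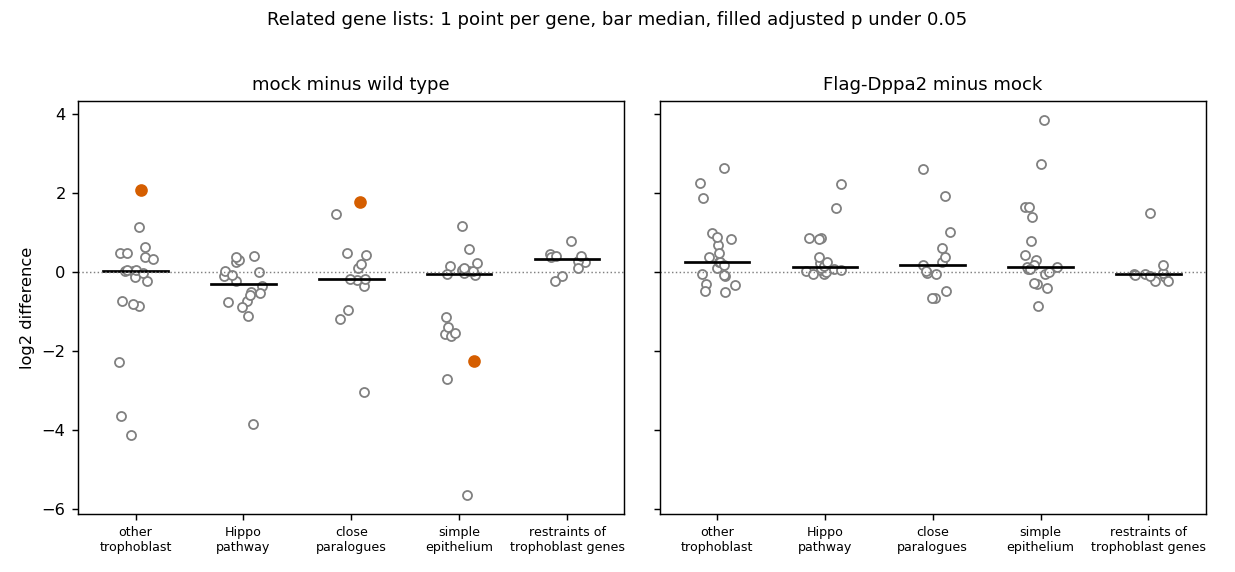
Difference of each tested gene (vertical axis, log2) in 5 related gene lists (horizontal axis), for mock minus wild type and for Flag-Dppa2 minus mock; bars are list medians and filled points have an adjusted p under 0.05. Bmp4, Cdx1 and Krt23 are the 3 filled points, all in mock minus wild type, and the medians lie between -0.30 and 0.32.

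Markers of the cell types that the cultures could hold were read on the same arrays. All 8 measured ES cell markers were above background on every array, with a summed level, in multiples of the 75th percentile, of 481 to 493 in wild type, 611 to 685 in mock and 600 to 677 in Flag-Dppa2. Utf1, a chromatin protein of ES cells, was the only one of them called, 1.83-fold higher in mock than in wild type (limma adjusted p = 0.0384, or 0.0694 with the block and 0.103 with no filter on dim probes). Of 9 measured trophoblast markers 5 to 7 were above background per array, summing to 0.738 to 0.849 in wild type, 0.64 to 0.836 in mock and 0.779 to 1.9 in Flag-Dppa2, and the defining marker Elf5 was above it on none. The list includes Cdx2, Eomes, Elf5 and Gata3 themselves. On the Flag-Dppa2 array of line 1, which had the sum of 1.9, Cdx2 stood at 0.09 (log2) and made up most of that sum. The higher sum there is thus largely the Cdx2 value counted again. Primitive endoderm markers, 7 to 10 of 10 above background, summed to 2.41 to 2.44, 2.16 to 2.3 and, in Flag-Dppa2, to 4.53 in line 1 and 2.91 in line 2. Their median difference between Flag-Dppa2 and mock was 1.2, against -0.01 over all features, with 0 called. In mock minus wild type it was -0.13, and Amn, a component of an endocytic receptor of endoderm, was 8.17-fold lower (adjusted p = 0.0195, or 0.0344 with the block). Line 1 was above line 2 with both vectors for 5 of the 10 tested and below it with both for 1. The corresponding counts were 3 and 2 of 7 for mesoderm and primitive streak markers, 3 and 1 of 6 for trophoblast markers and 9 and 1 of 13 for fibroblast and feeder markers. Cdx2 and Eomes are among the 3 trophoblast markers. No share over all features is given beside these counts, and line deviations correlated between the vectors over all features (r 0.59). The counts are thus no result about the markers. They also include small or dim differences, such as Mmp2 (0.06) and Postn (0.11) in Flag-Dppa2. Pdgfra, T and the fibroblast marker Col3a1, chosen after their values were seen, were well above background with both vectors in line 1 and with neither in line 2. The markers lower in line 1 with both vectors were Sox7, Mesp1, Evx1, Hand1 and Thy1. The part of these cell types in the differences of Cdx2, Krt8 and Krt18 between the lines was not tested.

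Mesoderm and primitive streak markers, 6 to 7 of 8 above background, summed to 2.04 to 2.06 in wild type, 0.609 to 0.808 in mock and 0.66 to 0.983 in Flag-Dppa2. Of 7 tested, Fgf8, a growth factor of the primitive streak, was called, 6.89-fold lower in mock than in wild type (limma adjusted p = 0.0382, or 0.0528 with the block and 0.0749 with no filter on dim probes). Fibroblast and feeder markers, 8 to 13 of 15, summed to 15.4 to 15.6, 12.2 to 14.0 and 16.6 to 18. Their median difference was -1.79 in mock minus wild type, 0.44 in Flag-Dppa2 minus mock and -0.78 in Flag-Dppa2 minus wild type, against 0.05, -0.01 and 0.03 over all features. A summed level is weighted towards the brightest probes of its list, and the median is not. In Flag-Dppa2 minus wild type, 1 fibroblast and feeder marker was called lower. Of 13 tested, 3 were lower in mock than in wild type and higher in Flag-Dppa2 than in mock, namely Fbn1, Loxl1 and Mmp2, and Mmp2 changed by -4.28 and 3.91 (log2, limma adjusted p = 0.00645 and 0.0166). The difference of these 3 genes between Flag-Dppa2 and mock did not pass with the block (adjusted p = 0.0573 to 0.0839). Fbn1 and Loxl1 were not well above background on either mock array. With normexp their Flag-Dppa2 minus mock differences shrank to 0.68 and 0.54 (limma adjusted p = 0.102 and 0.109). Stratified epithelium markers, 5 to 6 of 8, summed to 43.7 to 44.2, 54.2 to 58.9 and 56.4 to 57.7, and Krt14 was 2.1-fold lower in mock than in wild type (adjusted p = 0.0253, or 0.0536 with the block). The Krt14 call was also lost with quantile normalization (limma adjusted p = 0.054), the series matrix (0.0557) and no filter on dim probes (0.0723). The part of these cell types in the differences of Gata2 and of the keratins between mock and Flag-Dppa2 was not tested.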

How the data were processed

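Each array is 1 labelled sample of total RNA, and nothing shows that the samples of a group are separate cultures of 1 line, so p-values measure the spread between these samples. Per the file headers, the deposited intensity values (processed signal, background-subtracted) came from Agilent Feature Extraction 10.7.3.1 with protocol GE1_107_Sep09. The log2 values of the series matrix, which the authors made with GeneSpring GX 11 per the submitters' processing notes, served as an alternative; each of its 6 column medians was 5.84, their r with the scanner's log2 values was at least 0.9997, the sign and scale followed the arrays, and no gene centring was seen. The headers name genome build mm9, and promoter coordinates come from RefSeq on GRCm38.p6.

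Of 45018 spots per array 1639 controls and outlier spots were left out, and 115 of 41174 probes without a usable spot on some array were dropped. Of the 41059 kept, 27135 received 1 of 18512 symbols through the RefSeq accession and 13924 none. The log2 signal minus each array's 75th percentile was fitted with limma 3.58.1 (R 4.3.3; eBayes with 1.41 prior and 3 residual degrees of freedom) over the 13293 genes and 5474 unnamed probes that passed background on at least 2 of 6 arrays, with the brightest probe per symbol, and adjusted by Benjamini-Hochberg. The scripts were tested on simulated data. Figures and line differences used Python 3.11.15, numpy 2.4.6, pandas 2.3.3 and matplotlib 3.10.9.

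The members and gene lists were chosen with earlier results of these data known. Named are the 9 members with every probe, genes of the other lists called in any comparison (at most 4 a list), and the 3 features most correlated with each member called; others are said to be chosen after their values were seen, apart from marker genes. The replicate number pairs mock and Flag-Dppa2 arrays, which share a cell line per the labels. Deviations of same-numbered arrays from their group means correlated at 0.59 between mock and Flag-Dppa2, and wild type correlated at -0.04 with mock and at 0.01 with Flag-Dppa2. The planned fit without a block was kept. Alternatives changed the background correction (normexp, offset 50, on median signals, chosen after seeing the data because the files used here hold no mean signal), the normalization, the filter, the probe choice, the variance model, the block, the slide, the groups in the fit and each array.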

Additional observations from a re-analysis of the deposited data

Results flagged for a closer look

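For 2 genes, Flag-Dppa2 against mock went in opposite directions in the 2 knockout lines. Cdx2 differed by 1.68 (log2) in line 1 and by -0.10 in line 2, and Tfap2c by -0.18 in line 1 and by 0.98 in line 2. Each value is the difference of 2 single arrays, and the difference between the lines was not tested. The values of -0.10 and -0.18 were within the scanner's error of 0.23 and 0.20. No group had enough arrays for a check of single arrays that stand apart.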

How the results depend on the processing

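Tead4 in mock minus wild type (0.91 to 1.17) and Gata2 in Flag-Dppa2 minus mock (1.59 to 2.32) kept their sign under every alternative run, whereas the numbers of calls moved. For mock against wild type, 1149 features were called, against 384 with no filter on dim probes, 1761 with an intensity trend, 494 with the replicate block, 0 with the wild-type arrays averaged and 0 to 888 when each array was left out. The number of members called was 1, against 2 with normexp and with features well above background on all 6 arrays, 0 with no filter and with the averaging, and 0 to 1 with an array left out. For Flag-Dppa2 against mock, 139 features became 53 with normexp, 48 with no filter, 28 with features well above background on all 6 arrays, 4 with the replicate block, 0 with the block on the 4 knockout arrays, with only the 2 groups or with the averaging, and 0 to 112 with an array left out. For Flag-Dppa2 against wild type, 100 became 374 with normexp, 222 with quantile normalization, 223 with the series matrix, 6 with no filter, 23 with all 6 arrays above background, 301 with the trend, 0 with the block or the averaging, 5 with only the 2 groups, and 0 to 5 with an array left out. The replicate block changed no call among the members. Signs turned when an array was left out: Flag-Dppa2 minus mock ranged from -0.90 to 2.49 for Cdx2, from -0.31 to 0.08 for Eomes and from -0.25 to 1.05 for Tfap2c, and Flag-Dppa2 minus wild type from -0.05 to 3.34 for Cdx2, from -1.07 to 0.23 for Tfap2c, from -1.26 to 1.00 for Krt8 and from -1.01 to 1.03 for Krt18. Krt18 in Flag-Dppa2 minus wild type, 0.01, was -0.05 with quantile normalization and with the series matrix. The cause of these changes was not tested, other than that fewer arrays leave fewer degrees of freedom. With an array left out, a lone array was assumed to vary like the other groups. Signal over background limits Elf5, which was not tested.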
